A study of Mus musculus with 2 samples.

Results

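The miR-344 family is a group of microRNA genes that lie in tandem on mouse chromosome 7, and its members were taken by gene symbol from a list of 10 names (Mir344, Mir344b, Mir344c, Mir344d-1, Mir344d-2, Mir344d-3, Mir344e, Mir344f, Mir344g and Mir344i). All 10 had a row among the 1973 gene rows of the deposited tables. MicroRNA-seq was run on mouse midbrain, with 2 biological replicates and 1 library from each. The tissue came from B6NCrl embryos at embryonic day 13.5, male and female pooled, with no treatment or engineered allele named, and RNA under 30 nt was sequenced. Both samples carry the same donor record, so how separate the pools of embryos were is not known here, and differences between these libraries may be technical in part. There is 1 group, so no comparison between conditions can be made.

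MicroRNAs are short RNAs cut from a hairpin in a longer transcript, and either arm of the hairpin (5p or 3p) can be loaded into an Argonaute protein. The seed, bases 2 to 8 of the mature strand, pairs with target messenger RNAs and decides which are repressed. The miR-344 genes are known from rodents and mainly from brain. On chromosome 7 they lie beside Ndn and Magel2, imprinted genes expressed from the paternal chromosome whose human counterparts lie in the Prader-Willi syndrome region.

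The RefSeq mature arms of the 5 members with the most counts are shown because their sequences differ from copy to copy, with the seed in capitals.
miR-344f-5p: aGUCAGUCuccuggcuggaguc
miR-344f-3p: cUCUAGCCaggaccugacuac
miR-344c-5p: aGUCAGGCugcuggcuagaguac
miR-344c-3p: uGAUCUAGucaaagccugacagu
miR-344g-5p: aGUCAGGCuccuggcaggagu
miR-344g-3p: cAGGCUCUagccaggggcuuga
miR-344e-5p: cAGGCUUCuggcuauauucc
miR-344e-3p: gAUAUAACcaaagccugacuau
miR-344b-5p: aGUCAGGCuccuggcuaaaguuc
miR-344b-3p: cAUUUAGCcaaagccugacugu
Of these arms, miR-344e-5p occurs in 3 annotated hairpins and each of the others in 1.

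A second set is shown because each of its sequences stands in more than 1 annotated microRNA hairpin, so that a read of it cannot be given to 1 gene by sequence.
miR-344-5p: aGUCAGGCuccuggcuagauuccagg
miR-344-3p: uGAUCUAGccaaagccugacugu
miR-344d-3p: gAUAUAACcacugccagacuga
miR-344i: aAGUCAGGcuccuggcugga
Both arms of Mir344 recur in Mir344-2, a row with a Mir344 name outside the list. The miR-344d-3p arm is annotated in Mir344d-1, Mir344d-2 and Mir344d-3 alike, and its sequence also stands in the unnamed microRNA rows Gm23490 and Gm23962. The miR-344i sequence recurs in Gm24923.

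The 10 members carry 17 distinct mature arms with 10 distinct seeds. The seed GUCAGGC is the most shared, with 6 different 5p arms (of Mir344, Mir344b, Mir344c, Mir344d-1, Mir344d-3 and Mir344g). No mouse microRNA outside the family has that seed among the 1679 mature names in the RefSeq table. The 3p seed AUAUAAC of miR-344d-3p and miR-344e-3p is also that of miR-410-3p, a microRNA of the imprinted Dlk1-Dio3 region, and the 3p seed of Mir344g is also that of miR-7070-3p. The 3p seed GAUCUAG joins Mir344, its copy Mir344-2 and Mir344c. Mir344f, the most counted member, shares neither of its seeds (GUCAGUC and UCUAGCC) with another arm in that table.

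On mm10 the members span 402 kb of chromosome 7, from 61683124 to 62085310, all on the minus strand. Gaps between neighbouring members ran from 2.08 to 104 kb, with a median of 40.9 kb. Along the minus strand the order is Mir344i, Mir344f, Mir344g, Mir344, Mir344c, Mir344b, Mir344e, Mir344d-3, Mir344d-2 and Mir344d-1. The nearest protein-coding gene before Mir344i is Ndn, 261 kb away, followed by Magel2 at 292 kb. The nearest beyond the other end is Snrpn, 1534 kb from Gm25533, an unnamed microRNA row that lies past Mir344d-1. Mir344d-3, Mir344e, Mir344b, Mir344c and Mir344 lie in introns of the long noncoding transcript A230057D06Rik. Mir344g overlaps an exon of the processed transcript A330076H08Rik. Mir344f, Mir344i, Mir344d-1 and Mir344d-2 have no annotated host on their strand.

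The family was a small part of the small RNA of the midbrain. Values below are CPM, same-strand counts scaled to the library total over all gene rows, with 95% exact Poisson intervals for counts and exact Clopper-Pearson intervals for shares. The same-strand totals were 5093743 for replicate 1 and 2935841 for replicate 2, so that 3 counts, the one-sided limit that a count of 0 allows, correspond to 0.589 and 1.02 CPM. Without molecular identifiers these intervals and limits cover counting error only. The members together held 180 counts in replicate 1, or 35.3 CPM (30.4 to 40.9), and 114 counts in replicate 2, or 38.8 CPM (32.0 to 46.6). The mean of 37.1 ± 2.47 CPM (SD, n = 2) is 0.00371% of the counts, and the intervals of the libraries overlap.

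Mir344f held the most counts of the family in each library. It had 87 counts in replicate 1, or 17.1 CPM (13.7 to 21.1), and 68 counts in replicate 2, or 23.2 CPM (18.0 to 29.4). Its mean of 20.1 ± 4.30 CPM (SD, n = 2) placed it at rank 285 of the 1973 rows. The gene is ENSMUSG00000093108.1, chromosome 7 from 62046181 to 62046248.

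Mir344c (61837311 to 61837402) came next, with 37 counts or 7.26 CPM in replicate 1 and 12 counts or 4.09 CPM in replicate 2. Its mature 3p arm carries the same seed as that of Mir344. Mir344g (61982289 to 61982359), the hairpin most like Mir344f, had 14 counts or 2.75 CPM in replicate 1 and 15 counts or 5.11 CPM in replicate 2. Mir344e (61735537 to 61735602) had 20 counts or 3.93 CPM and 9 counts or 3.07 CPM. Mir344b (61790519 to 61790581) had 15 counts or 2.94 CPM and 4 counts or 1.36 CPM. Mir344c, Mir344e and Mir344b were higher in replicate 1 and Mir344f and Mir344g in replicate 2. The counting intervals of the 2 libraries overlapped for each of them, which at such low counts does not show that the levels were alike. The share of all rows with such an overlap was not computed, so the overlap is no trait of the members.

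The other 5 members were at or near 0. Mir344i had 1 count in replicate 1 and 6 in replicate 2, or 0.196 and 2.04 CPM. Mir344d-3 had 6 counts in replicate 1, or 1.18 CPM, and 0 in replicate 2. Mir344, Mir344d-1 and Mir344d-2 had 0 counts in both libraries. The exact Poisson interval of Mir344d-3 in replicate 1 (0.432 to 2.56 CPM) overlapped that of its 0 counts in replicate 2 (0 to 1.26 CPM).

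**Figure D1:**
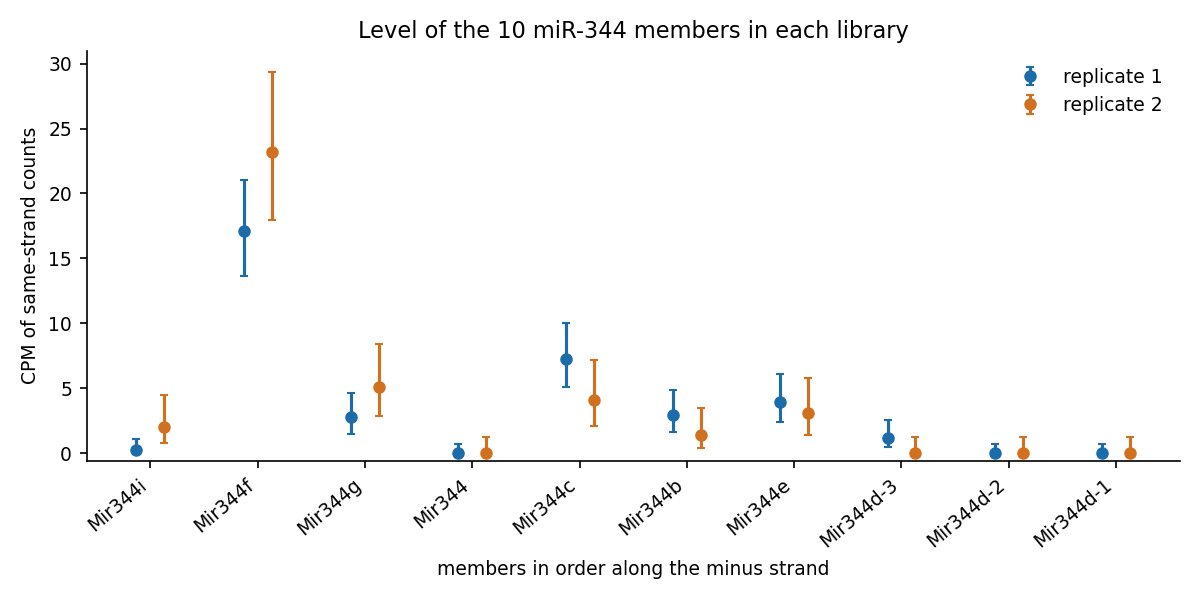
CPM of same-strand counts (vertical axis) of the 10 members in order along the minus strand, with 1 point per library and bars giving the 95% exact Poisson interval of the count. Mir344f stands at 17.1 and 23.2 CPM, above the highest value of any other member (7.26 CPM), and 3 members are at 0 in both libraries.

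In the order of mean levels, the step from Mir344f to Mir344c was resolved by the libraries, with no overlap of their ranges. The fold was 2.35 in replicate 1 and 5.67 in replicate 2. Mir344c, Mir344g and Mir344e overlapped with their neighbours in the order and were not resolved. Mir344e and Mir344b did not overlap, but the gap was from 3.07 to 2.94 CPM, less than counting error. Mir344b, Mir344i and Mir344d-3 again overlapped from neighbour to neighbour. The order of the 7 members with counts was the same per 100 nt of hairpin, a scale chosen after seeing the data, with hairpins of 63 to 95 nt.

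Among members, 5 of 10 reached 1 CPM in both libraries, and 22.8% of all rows did. At 10 CPM it was 1 of 10 (Mir344f), and 15.6% of all rows. No count in either library was found for 3 of 10 members and for 63.6% of all rows. Of the 916 rows with a RefSeq mature arm, which include all 10 members, 43.8% reached 1 CPM in both libraries and 33.4% had no count. The 5 members with at least 10 counts over both libraries had a median of 3.93 CPM, and all 466 rows with that many counts had a median of 53.0 CPM.

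Counts were lowest at the members whose hairpins share long runs with another copy. Reads that map to several places made up 34.4% and 37.7% of the reads and are in no gene row, and the tables do not say where they came from. Mir344f, Mir344c, Mir344g and Mir344b, whose every mature arm stands in 1 annotated microRNA hairpin, all reached 1 CPM in both libraries. Of the 4 members with 1 arm shared and 1 not (Mir344e and the 3 Mir344d genes), Mir344e reached that level, Mir344d-3 had 6 counts in replicate 1 alone and the other 2 had none. Mir344 and Mir344i, with every annotated arm also in another hairpin, had 0 and 7 counts over both libraries. The 5p arms of Mir344d-1 and Mir344d-2 each stand in 1 annotated hairpin, and both rows were at 0. What part of the multimapping reads came from the family was not tested.

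The longest exact run shared with another annotated microRNA hairpin was 19 nt for Mir344c, 21 nt for Mir344b, 24 nt for Mir344f and Mir344g and 25 nt for Mir344e. It was 38 nt for Mir344i, 39 nt for Mir344, 43 nt for Mir344d-1, 50 nt for Mir344d-2 and 51 nt for Mir344d-3. The 5 members with runs of 25 nt or less are the same 5 that reached 1 CPM in both libraries. The unnamed rows of the cluster did not divide in this way. Gm23873 (23 nt) had counts in both libraries, but Gm25533 (16 nt) and Gm23917 (22 nt) had 0 counts and Gm22466 (23 nt) had 1. Of windows of 22 nt along the hairpin, 91.5% in Mir344f and 100% in Mir344c were found in no other annotated microRNA hairpin, against 49.2% in Mir344d-3 and 56.8% in Mir344. These shares refer to annotated microRNA hairpins and not to the whole genome, which was not used here.

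**Figure D2:**
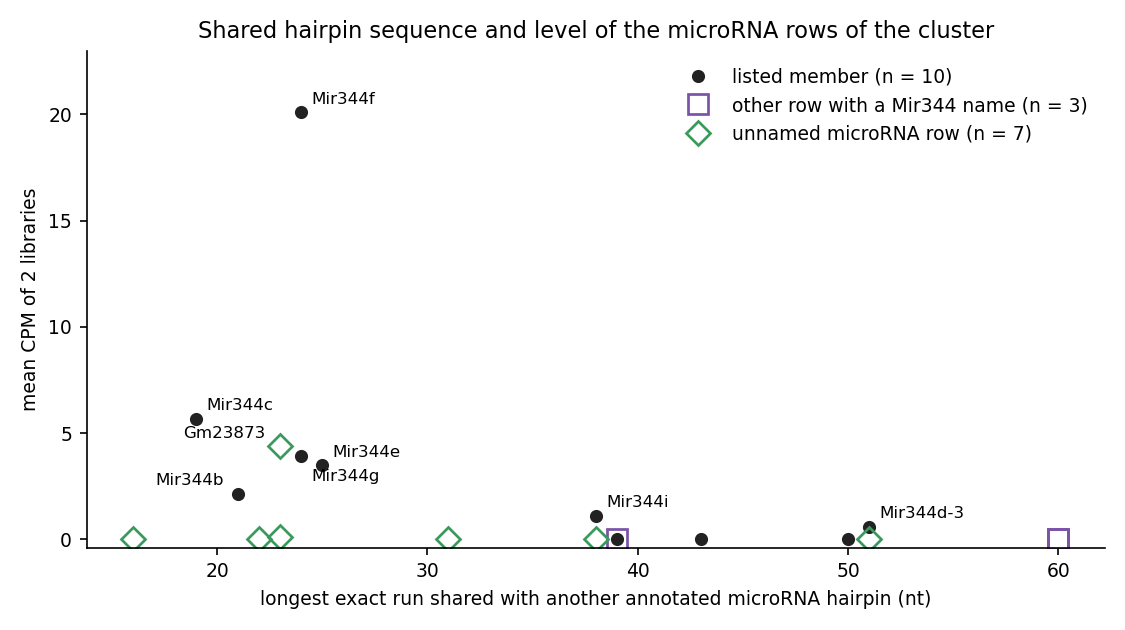
Longest exact run shared with another annotated microRNA hairpin (horizontal axis, nt) and mean CPM of 2 libraries (vertical axis) for the 20 microRNA rows of the cluster, with filled circles for the 10 members, open squares for other rows with a Mir344 name and open diamonds for unnamed rows. Members with runs of 25 nt or less lie between 2.15 and 20.1 CPM and those with 38 nt or more at 1.12 CPM or below, while 3 unnamed rows with runs of 16 to 23 nt lie at or near 0. Mir344h-1 and Mir344h-2 coincide at 60 nt.

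Over the 916 rows of the tables with a RefSeq mature arm, the same classes can be set side by side as a description. No count in either library was found for 37 of 60 rows (61.7%) with every arm in another hairpin, for 9 of 58 (15.5%) with some arms shared and for 260 of 798 (32.6%) with none shared. The rows with some arms shared thus did not lie between the others. In the family, 2 of the 4 members of that class had no count.

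The cluster holds more copies than the list. Within 1 Mb of a member the tables have 20 microRNA rows, all on the minus strand. They are the 10 members, 3 further rows with a Mir344 name and 7 unnamed rows. Mir344-2, Mir344h-1 and Mir344h-2 had 0 counts in both libraries, and the hairpins of Mir344h-1 and Mir344h-2 are identical over all 60 nt. Gm25533, Gm23962, Gm23490, Gm23917 and Gm24923 had 0 counts as well, and Gm22466 had 1 count in replicate 1.

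Gm23873, an unnamed row, was counted at the level of the members. It had 22 counts in replicate 1 and 13 in replicate 2, or 4.32 and 4.43 CPM, a mean of 4.37 CPM that lies within the range of Mir344g and above the values of Mir344e. Its hairpin, at chr7:61750468-61750537, falls within an intron of A230057D06Rik. Compared without gaps, its stretch most like miR-344e-5p differed at 1 of 20 bases. Its stretch most like miR-344h-3p, the nearest 3p arm by that count, differed at 7 of 22. Without gaps, a base missing from 1 of the sequences adds mismatches beside it, so this count can overstate the divergence of the 3p arm. Of its windows of 22 nt, 93.9% were in no other annotated hairpin. Its hairpin is shown beside those of Mir344f and Mir344g, the nearest pair among the counted members, with annotated mature arms in capitals (Gm23873 has none in the RefSeq table).
Mir344f: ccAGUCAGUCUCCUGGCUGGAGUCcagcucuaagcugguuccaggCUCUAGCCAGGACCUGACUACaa
Mir344g: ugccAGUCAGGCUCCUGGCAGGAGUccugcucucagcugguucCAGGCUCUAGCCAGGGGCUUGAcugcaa
Gm23873: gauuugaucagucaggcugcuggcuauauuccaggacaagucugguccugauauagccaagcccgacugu
Mir344f and Mir344g were identical at 85.9% of aligned positions in a global alignment. Over the 45 pairs of members the identity ran from 54.6% to 91.2%, with a median of 62.2%, and the highest was that of Mir344d-2 and Mir344d-3. With all 20 rows of the cluster, the counts were 203 in replicate 1 and 127 in replicate 2. No read was counted on the opposite strand of any of these 20 rows.

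**Figure D3:**
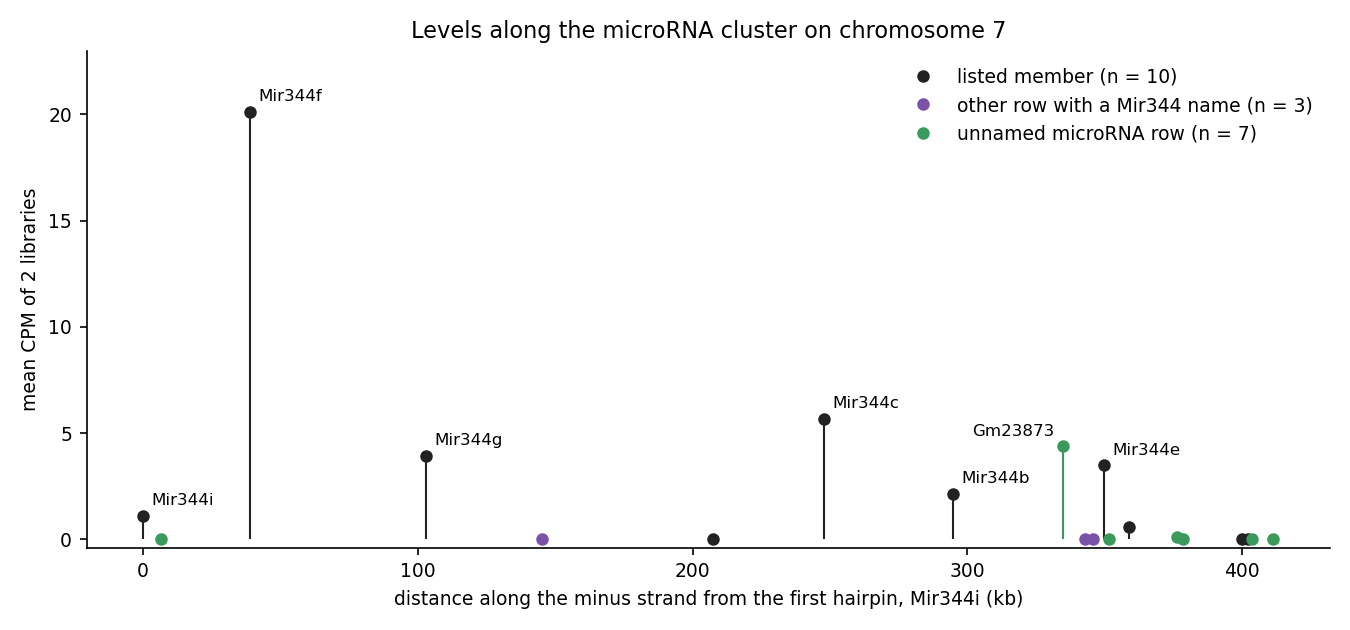
Mean CPM of 2 libraries (vertical axis) of the 20 microRNA rows by their distance along the minus strand from the first hairpin, Mir344i (horizontal axis, kb). Black marks members, purple other rows with a Mir344 name and green unnamed rows. Counted rows stand between rows at 0 along much of the span, with Mir344f highest, and the rows from Gm23490 (379 kb) on are all at 0.

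For each row an exact conditional binomial test (two-sided, on TMM-scaled library sizes) compared the libraries, adjusted by Benjamini-Hochberg over the 466 rows with at least 10 counts. It sets 1 library against the other and says nothing of conditions. It treats reads as independent and takes only counting error into account, so its p-values and calls hold no estimate of the spread between replicates. None of the 5 tested members passed, and 38.0% of all tested rows did (18.7% higher in replicate 1 and 19.3% higher in replicate 2). At an unadjusted p under 0.05 it was 1 of 5 members (Mir344f) and 43.6% of rows. Of the 194 rows of 10 to 200 counts, the range that holds the 5 members, 7.73% passed.

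Mir344f had a log2 ratio of replicate 1 to replicate 2 of -0.49, with an adjusted p of 0.085 by that exact test. In 1 random draw that thinned replicate 1 to the depth of replicate 2, Mir344f had a log2 ratio of -0.65. It passed there at an adjusted p of 0.048 by the exact test, and no other draw was made. The log2 ratio was -0.85 for Mir344g, 0.25 for Mir344e, 0.70 for Mir344c and 0.83 for Mir344b, with adjusted p by the same exact test of 0.17, 0.83, 0.26 and 0.40. Of these 5 ratios 4 were larger in size than the median of 0.40 for the 194 sparse rows (quartiles 0.20 and 0.83), and those of Mir344g and Mir344b lay just above the upper quartile. A difference of that size did not pass at these counts, which does not show that the levels were alike. Mir344i (1 and 6 counts) and Mir344d-3 (6 and 0) had too few counts to be tested with the filter, and with no filter Mir344i passed at an adjusted p of 0.043 and Mir344d-3 did not (0.27), by the exact test.

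The share of the family held by each member can be read without regard to library size. Mir344f held 48.3% (40.8 to 55.9) of the family's counts in replicate 1 and 59.6% (50.1 to 68.7) in replicate 2. Mir344c held 20.6% (14.9 to 27.2) and 10.5% (5.56 to 17.7). The intervals of the libraries overlap for both members. Mir344g held 7.78% and 13.2%, Mir344e 11.1% and 7.89%, and Mir344b 8.33% and 3.51%.

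**Figure D4:**
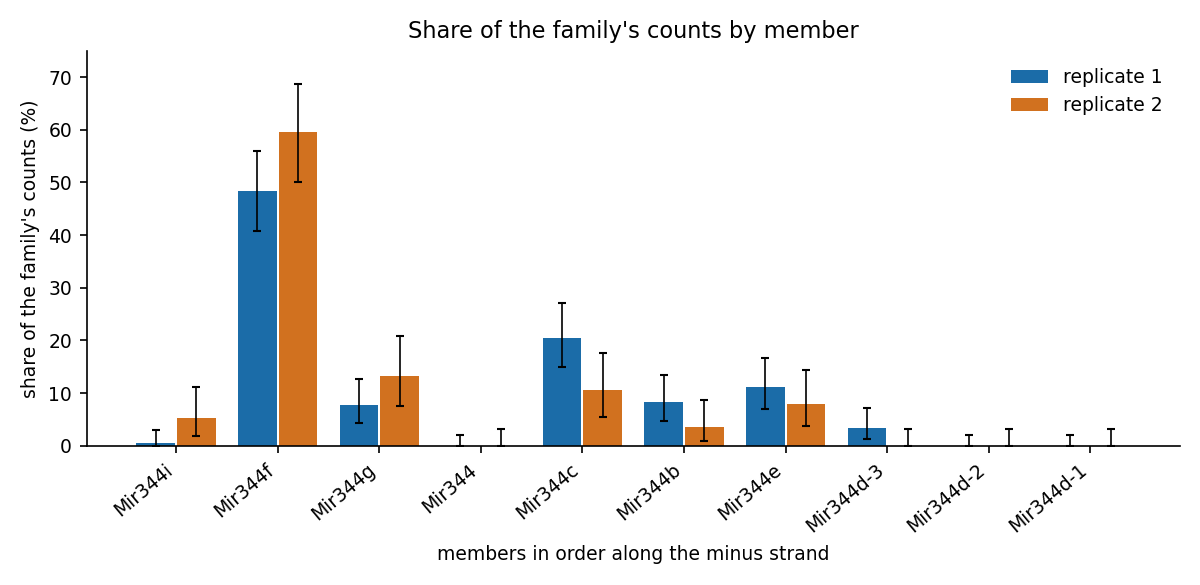
Share of the family's counts (vertical axis, %) held by each member in order along the minus strand, with 1 bar per library and 95% exact Clopper-Pearson intervals. Mir344f holds the largest share in each library, 48.3% and 59.6%, and Mir344i, Mir344f and Mir344g have higher bars in replicate 2 while Mir344c, Mir344b, Mir344e and Mir344d-3 have higher bars in replicate 1.

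As a check of the tissue, 8 of the 9 listed neural markers had a row and all 8 had counts. Their summed level was 18651 CPM in replicate 1 and 17288 CPM in replicate 2. Most of it came from Mir92b (8440 and 9987 CPM) and Mir137 (9265 and 6397 CPM). Mir128-1 and Mir9-3 had means of 532 and 377 CPM. Mir124a-1, Mir124a-2, Mir124a-3 and Mir9-2 had means of only 1.64 to 9.31 CPM. Mir126a of endothelium stood at 16256 and 21170 CPM, and the mural and mesenchymal list (4 of 4 rows with counts) summed to 5280 and 6958 CPM. Most of that sum came from Mir143 (4991 and 6626 CPM). Mir214 and Mir145a had means of 242 and 68.0 CPM, and Mir199a-1 had 1 count in each library. Blood markers (3 rows) summed to 226 and 274 CPM. Of the 3 muscle markers Mir206 alone had counts (14.7 and 10.6 CPM). The pair Mir375 and Mir122 summed to 582 and 1504 CPM and the pair Mir449a and Mir204 to 1594 and 3184 CPM, so that replicate 2 held more of the endocrine, liver, multiciliated and choroid plexus markers, and their part in the values of Mir344f, Mir344g and Mir344i was not tested. In bulk tissue, fewer cells of a type and less RNA per cell cannot be told apart.

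By the reads counted in gene rows, the family was sparse against other microRNAs known from neural tissue. Of 22 such microRNAs listed, 21 had a row and 17 had a higher mean than Mir344f. All 21 reached 1 CPM in both libraries, beside 22.8% of all rows. Their median was 377 CPM. The exact test called 5 of the 21 in favour of replicate 1 and 3 in favour of replicate 2, and left 13 uncalled. The loci of miR-9 and miR-124 with few counts lay in the range of the miR-344 members, with 9.31 CPM at Mir124a-2 and 2.08 CPM at Mir9-2, and miR-9 and miR-124 too are made from several copies.

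By distance of log2(CPM + 0.5) over the 2 libraries, the rows nearest in level to Mir344f were Mir205 (18.3 and 23.2 CPM), Mir582 (19.0 and 24.2 CPM) and Mir211 (16.1 and 20.1 CPM). Nearest to Mir344b, the fifth member by level, were Gm22925 and Mir7066 (each 2.36 and 1.36 CPM) and Gm23388 (2.94 and 1.02 CPM). With 2 libraries this likeness describes level and no shared pattern.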

How the data were processed

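Small RNA of mouse midbrain was measured in 2 samples of 1 group. The authors deposited raw counts of reads for each gene. The text notes deposited with each sample name assembly mm10 and annotation M4, and no source used here names the aligner or the read filters. Each table has 3 count columns without a header, read as unstranded, same-strand and opposite-strand because the first equals the sum of the others in all 1973 rows. Counts are per hairpin, so the arms were not told apart. Unmapped reads (16.1% and 15.7%), multimapping reads and reads in no gene row (3.79% and 3.80%) entered neither the library sizes nor a test.

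Names, coordinates and hairpins came from GENCODE M21 on the same assembly (1894 of 1973 IDs matched), and mature arms from RefSeq on GRCm38.p6, which held 13 of the 20 rows of the cluster. Shared sequence was searched on both strands of 2202 annotated microRNA hairpins. Identity is matching positions over all columns of a global alignment (Biopython 1.88). No contrast exists within 1 group, so edgeR 4.0.16 supplied TMM factors alone. Rows with at least 10 counts over both libraries entered the two-sided exact conditional binomial test (scipy 1.17.1, Benjamini-Hochberg threshold 0.05), which takes only counting error into account and was tested on simulated data with and without added spread between libraries. Ratios use a pseudocount of 0.5 CPM. Alternatives were other count minimums, scaling by DESeq2 1.42.0 or by totals alone, another CPM threshold, unstranded counts, thinning, another pseudocount, another denominator and each replicate left out.

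The members, lists and the rule for named genes were chosen with earlier results of these data known. The rule names every member, other Mir344 rows, rows within 1 Mb, the 3 rows nearest in level to each of 2 members, and the markers.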

Additional observations from a re-analysis of the deposited data

How the results depend on the processing

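The mean share of the family (0.00371%) was 0.00204% with multimapping reads added to the denominator alone, since none of them is in a gene row. It was 0.00416% with all 20 rows of the cluster, a setting chosen after seeing the data. Unstranded counts did not change it by more than the spread between replicates. With 1 replicate left out it ran from 0.00353% to 0.00388%. The count of members at 1 CPM in both libraries was 5, and 1 at a threshold of 10 CPM. With 1 replicate left out the level has to be reached in the other library alone, and the count was 6 each time, with Mir344i as the sixth without replicate 1 and Mir344d-3 without replicate 2. The count of members past the test was 0 of 5 tested, beside 38.0% of all tested rows. It was 1 of 7 with no filter on low counts (Mir344i), beside 24.9% of rows. With replicate 1 thinned by 1 random draw it was 1 of 5 (Mir344f), beside 37.9% of rows. With DESeq2 size factors, total counts only, unstranded counts or a pseudocount of 1 CPM it was 0 of 5, beside 38.0% to 38.8% of rows. At a minimum of 50 counts it was 0 of 1, beside 52.3% of rows. The 5 log2 ratios kept their sign in all 31 alternatives, with adjusted p from the exact conditional binomial test between 0.048 and 0.94. With unstranded counts or TMM-scaled sizes, the mean levels of the members moved by less than their SD or stayed at 0. Leaving out a replicate gives the value of the other library, which for Mir344i (mean 1.12 CPM) was 0.196 or 2.04 CPM and for Mir344d-3 (mean 0.589 CPM) 0 or 1.18 CPM. Leaving out a library leaves 1 sample and no test between libraries. No paired analysis was possible because there is 1 group. Depth limits the family, since 5 members had at least 10 counts and 3 counts already correspond to 0.589 and 1.02 CPM.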

Other observations

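The members can be divided between Mir344 and Mir344g, where the copies nearest in hairpin identity change. Mir344 and Mir344-2 are nearest to each other on one side, and Mir344g and Mir344f on the other, where Mir344i is nearest to Gm24923. GC content was not the basis of the division. Hosts do not mark the division, since Mir344f and Mir344i on one side and Mir344d-1 and Mir344d-2 on the other have none annotated. This division was chosen after the values were seen and is given without a test. The intervals below cover counting error alone and, after that choice, cannot serve as a test of the division. Mir344i, Mir344f and Mir344g, the first 3 members along the minus strand, were each higher in replicate 2, with 102 counts or 20.0 CPM (16.3 to 24.3) in replicate 1 and 89 counts or 30.3 CPM (24.3 to 37.3) in replicate 2. The other 7 members had 78 counts or 15.3 CPM (12.1 to 19.1) and 25 counts or 8.52 CPM (5.51 to 12.6), and the 4 of them with counts that differ were each higher in replicate 1. The unnamed row Gm23873, which lies among these 7, did not share that direction, with 4.32 and 4.43 CPM and a log2 ratio of -0.09. The first 3 members held 56.7% (49.1 to 64.0) of the family's counts in replicate 1 and 78.1% (69.4 to 85.3) in replicate 2. Without Mir344f, Mir344i and Mir344g held 8.33% (4.74 to 13.4) and 18.4% (11.8 to 26.8). The hairpins of Mir344g, Mir344f and Mir344i have a GC content of 62.0%, 57.4% and 56.8%, and those of the other members lie between 45.0% (Mir344d-2) and 53.7% (Mir344). Whether the GC content or the position has a part in this split was not tested.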
